A study of Mus musculus with 6 samples.

Results

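The genes described here are 35 components and feedback regulators of the NF-kappaB pathway, taken by gene name from the deposited table of 26428 genes. RNA sequencing of 6 mouse libraries measured them in alveolar macrophages, which patrol the air side of the lung. By genotype label, 3 of the libraries are Rack1F/- (control here) and 3 are Rack1{delta}Mye (knockout here). Rack1 encodes a scaffold that sits on the ribosome and also binds signalling proteins. What the allele symbols stand for, the Cre driver, the age and sex of the mice and any treatment are not given in the sources used here. Whether each library is from its own mouse is not stated. The p-values here weigh differences only against the variation among these libraries, which may be technical in part. Sex-linked transcripts, given below, differed among the knockout libraries. The members fall into 6 role groups, which are the 5 DNA-binding subunits, 5 IkappaB proteins, 3 parts of the IKK complex, 14 adaptors, ligases and upstream kinases, 5 further feedback genes, and 3 genes for the cytokine TNF and its receptors.

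NF-kappaB is a family of transcription factor dimers held in the cytoplasm of resting cells by IkappaB proteins. Toll-like receptors, the interleukin-1 receptor and TNF receptors signal through adaptors and kinases to the IKK complex, which marks IkappaB for destruction and frees the dimers to enter the nucleus. Many targets of NF-kappaB encode its own inhibitors, which limits the response.

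Estimated counts summed to between 51894849 and 66163430 units per library. One read pair was probably worth about 4 units, since among genes with 1 transcript in knockout replicate 1, 874 had a value of 4 against 414 at 3 and 205 at 5. Every one of the 35 members passed the expression filter, with 66 to 12116 units per library. Rack1 itself lay between 77.3 and 83.5 CPM (counts scaled to library size) in control and between 34.1 and 38.6 CPM in knockout, a log2 fold change of -1.12 (edgeR adjusted p = 0.000207). All 11 alveolar macrophage markers were present, and they did not move together. Siglecf was lower, at 153.3 to 171.2 CPM in control and 98.4 to 112.6 CPM in knockout, as were Pparg and Krt79 without overlap. Marco was higher, at 901.1 to 1098 and 3250.3 to 5201 CPM, as were Car4 and Itgax without overlap. Fabp4, Chil3, Mrc1, Plet1 and Ear2 overlapped between groups, with Mrc1 at 105.8 to 142.0 and 120.5 to 126.3 CPM. Summed markers of neutrophils (21.5 to 36.8 CPM in control, 75.04 to 87.4 CPM in knockout) and of monocytes and interstitial macrophages (45.2 to 78.3 and 107.0 to 224.8 CPM) were higher in every knockout library. Those of eosinophils (40.1 to 52.7 and 15.97 to 21.6 CPM) and epithelial cells (57.9 to 95.1 and 44.1 to 51.7 CPM) were lower. Within each list the markers disagreed. Among the 8 neutrophil markers Retnlg went from at most 11.9 CPM to 44.1 to 63.2 CPM, Csf3r from 7.93 to 10.6 CPM down to 1.47 to 4.12 CPM, S100a8 overlapped, and Ly6g, Mpo, Camp and Ngp were under 1 CPM in every library. Nearly all of the monocyte and interstitial macrophage sum was C1qa and C1qb, with Ccr2 at 2.07 to 2.55 CPM in control and 1.74 to 2.08 CPM in knockout. Nearly all of the eosinophil sum was Siglece, with Prg2 and Ccr3 under 1 CPM in every library, so that sum does not measure eosinophils. In the epithelial list Epcam was lower, at 14.98 to 21.01 CPM in control and 2.68 to 4.90 CPM in knockout. Krt8 and Krt18 were also lower without overlap. Sftpc was higher, at 2.16 to 6.03 and 6.75 to 18.5 CPM, and Scgb1a1, Cdh1 and Sftpb overlapped between groups. The part of these cells in the results was not tested. In bulk RNA, fewer cells of a type and less RNA per cell cannot be told apart.

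Of the 35 members, 3 passed the test between knockout and control. Tank, which encodes a TRAF-binding scaffold, was higher in knockout, Nfkb1 and Myd88 were lower, and the other 32 members did not pass the test (edgeR quasi-likelihood test, Benjamini-Hochberg adjusted over 14797 genes at 0.05). The 3 called members are 8.57% of the 35, against 11.9% of all genes tested. By direction, 1 of 35 was called higher against 5.93% of all genes, and 2 were called lower against 6.01%. The median log2 fold change of the members was 0.04, against 0.01 for all genes tested, with 20 members above 0 and 15 below. Single members ranged from -0.66 for Tab1 to 0.95 for Tnip3. Groups did not overlap for 14 members (7 higher and 7 lower in knockout), 40% of the 35, against 31.2% of all genes tested (15.3% higher and 15.9% lower). An unadjusted edgeR p under 0.05 was found for 12 members. The matching share of all genes was not computed, so no excess can be read from that count. The called share and the non-overlap share of the members are near those of all genes, so neither is a result about the pathway. A member that missed the threshold is not shown to be unchanged. Library totals, used instead of TMM, lowered the median log2 fold change of all genes by 0.32 and moved the members' median to -0.27, so the direction of members near 0 depends on the scaling.

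**Figure D1:**
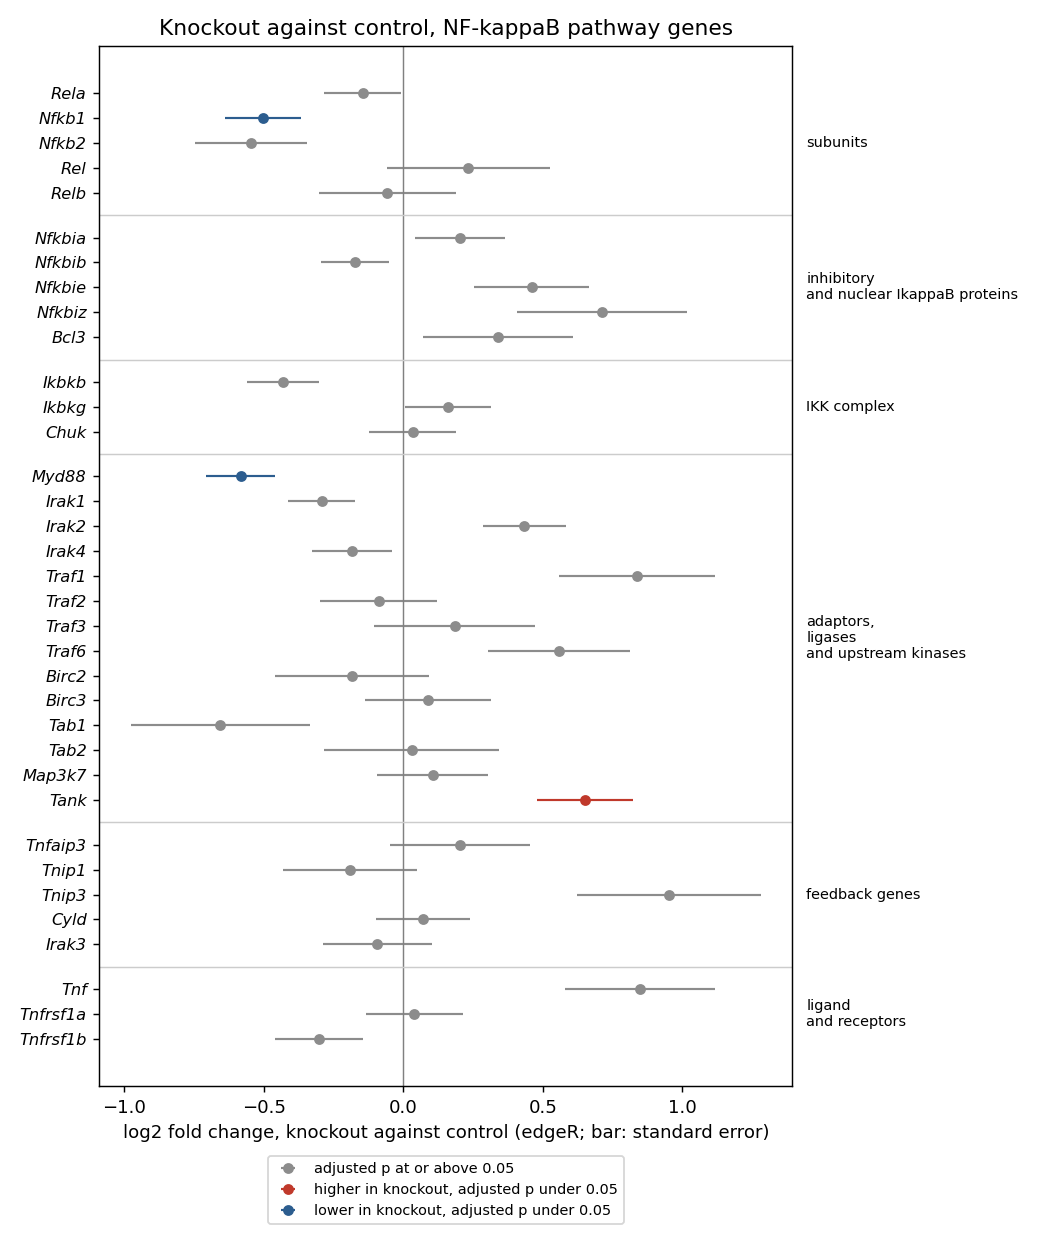
Log2 fold change of each of the 35 members, knockout against control, from the edgeR fit over all genes, with bars of 1 standard error (n = 3 libraries per group), grouped by role. The coloured points are the members that passed the adjusted threshold, Tank above 0 and Nfkb1 and Myd88 below it, and the role groups spread to both sides of 0.

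Levels per length spanned a wide range. On the deposited FPKM scale, which corrects for gene length and depth, Nfkbia, which encodes the main inhibitor IkappaB-alpha, was at 96.7 ± 7.19 in control (SD, n = 3), the highest of the members. Myd88, Nfkbib, Tnfrsf1b, Tnfrsf1a and Rela followed at 40.8 ± 9.16, 28.3 ± 5.18, 19.7 ± 1.66, 15.6 ± 4.29 and 15.2 ± 4.43 FPKM. The ranges of Myd88 and Nfkbib overlapped in control, as did those of Tnfrsf1a and Rela. In knockout, Nfkbia stayed first at 91.5 ± 33.4 FPKM and Myd88 stood second at 21.8 ± 5.91 FPKM, with Nfkbib within its range at 20.2 ± 4.94 FPKM. In control, 17 members lay between 1 and 10 FPKM and 12 below 1, with Traf1 and Tnip3 lowest at 0.179 ± 0.0197 and 0.169 ± 0.0852 FPKM. The deposited FPKM divides by all annotated exonic bases of a gene, so a gene with much annotated exonic sequence, such as Ikbkb with 19078 bases, reads low on this scale.

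**Figure D2:**
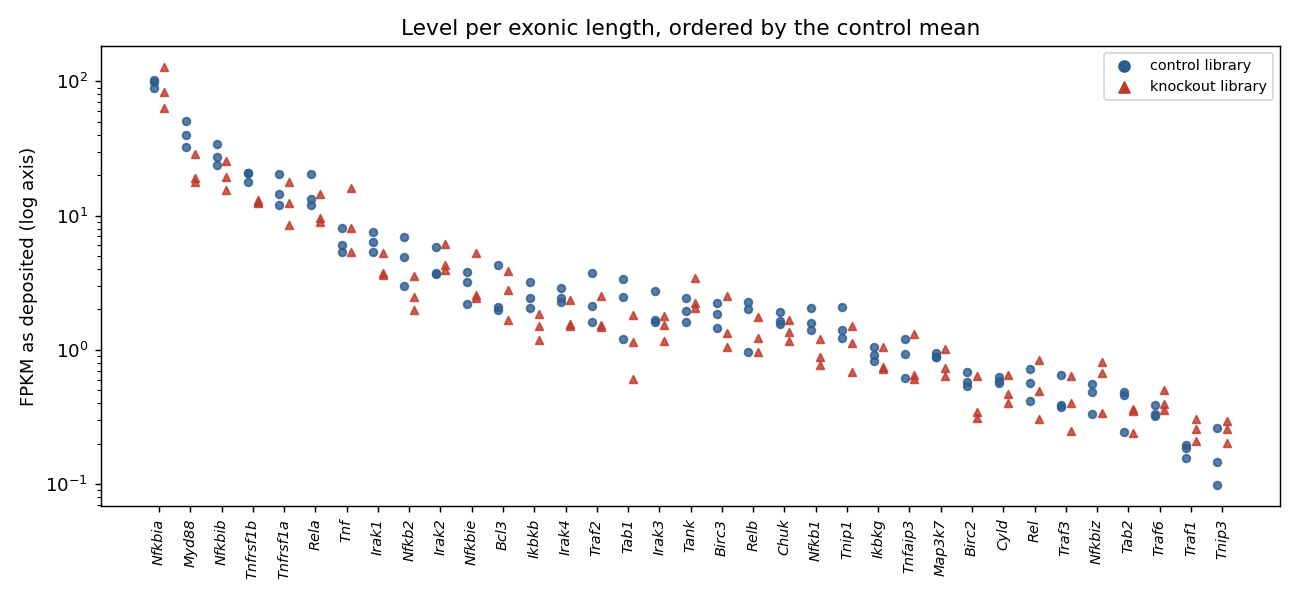
Deposited FPKM of each member in each library on a log axis, ordered by the control mean (circles for the 3 control libraries, triangles for the 3 knockout libraries). Nfkbia stands above all others and Traf1 and Tnip3 lie lowest, and for most members the libraries of the groups interleave.

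Several of these genes are textbook targets of NF-kappaB, and some of their promoters carry its binding sequence. RefSeq promoter windows of GRCm38.p6, from 250 bases before to 50 after a start, were at hand for 30 members, and none was used for Nfkb1, Relb, Nfkbiz, Ikbkb and Tab1. The NF-kappaB consensus was searched on both strands, with overlapping matches counted once per gene. It lay in a window of 12 of the 30 members (40%) against 5.14% of 27025 genes. The sequences that follow show the consensus match nearest upstream of a RefSeq start, in capitals, for 7 of these members, picked after their values were seen. They are subunits and inhibitors with varied values and Tank, the member called higher. The other members with a match were Tnip1, Cyld, Map3k7 and Traf3, upstream of a start, and Bcl3, just after one. Coordinates are those of the printed stretch, and each is written 5′ to 3′ on the strand of its gene.
Nfkbia, chr12:55492648-55492701, minus strand: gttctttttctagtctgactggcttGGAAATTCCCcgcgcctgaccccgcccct
Nfkbie, chr17:45555569-45555628, plus strand: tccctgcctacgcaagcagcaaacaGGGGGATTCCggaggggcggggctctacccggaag
Tnfaip3, chr10:19015411-19015447, minus strand: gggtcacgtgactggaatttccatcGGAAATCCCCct
Tnip3, chr6:65590319-65590378, plus strand: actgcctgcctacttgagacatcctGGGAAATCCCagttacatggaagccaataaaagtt
Rel, chr11:23771026-23771086, minus strand: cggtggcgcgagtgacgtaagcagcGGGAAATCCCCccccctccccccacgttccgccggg
Nfkb2, chr19:46304701-46304736, plus strand: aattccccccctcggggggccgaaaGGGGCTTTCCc
Tank, chr2:61593000-61593059, plus strand: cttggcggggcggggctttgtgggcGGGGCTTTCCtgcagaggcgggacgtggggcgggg

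In Rel, overlapping matches make 1 longer run, and the matches of Tank, Tnip3 and Nfkb2 lie by RefSeq starts that fall inside the gene as the deposited coordinates draw it. The 12 members with a consensus match had a median log2 fold change of 0.20, with 10 of them above 0, and the 18 without had a median of -0.03. Over all tested genes with a promoter window the medians were 0.05 for 627 genes with a match, 336 of them above 0, and 0.01 for the 9888 without. The count above 0 among the members depends on the scaling. On library totals Nfkbia, Rel, Tnfaip3, Traf3, Map3k7 and Cyld fell below 0, at -0.08, -0.04, -0.08, -0.12, -0.18 and -0.23. Nfkbie, Bcl3, Tank and Tnip3 stayed above 0, at 0.17, 0.01, 0.35 and 0.56. Nfkb2 and Tnip1 were below 0 under both scalings, so most members with a match were then below 0. A link between match and fold change was not tested. A match describes letters in a window and is not evidence of binding in these cells.

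Among the DNA-binding subunits, Nfkb1 was lower in knockout and the other 4 did not pass the test. Nfkb1 (ENSMUSG00000028163, chromosome 3, 135584655 to 135691546 on the minus strand of GRCm38) encodes the precursor of the small subunit of the classical dimer. Given here and below in the order of replicates 1, 2 and 3, it stood at 18.9, 18.2 and 20.3 CPM in control and 12.2, 14.1 and 14.1 CPM in knockout. Every knockout library lay below every control library, and the log2 fold change was -0.50 (SE 0.14, edgeR adjusted p = 0.0365). The call was lost when any 1 library was left out, at edgeR adjusted p = 0.105, 0.0775 and 0.0946 without control replicates 1, 2 and 3 and 0.121, 0.0755 and 0.0689 without knockout replicates 1, 2 and 3. Its log2 fold change then stayed between -0.55 and -0.44.

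Nfkb2, which encodes the precursor of the small subunit of the alternative dimer, had a similar value of -0.55 with a wider standard error of 0.20 (edgeR adjusted p = 0.112). Its levels were 15.02, 21.5 and 25.7 CPM in the control libraries and 11.9, 14.97 and 15.8 CPM in the knockout libraries, so control replicate 1 lay within the knockout range. Of the exonic bases of Nfkb2, 18.1% overlap genes on the opposite strand. Without control replicate 1 its log2 fold change was -0.74 (edgeR adjusted p = 0.0520). Rela, the activating subunit of the classical dimer and the most abundant subunit, was at 43.4 ± 6.26 CPM in control and 39.2 ± 3.53 CPM in knockout (SD, n = 3), with a log2 fold change of -0.15 ± 0.14 (SE; edgeR adjusted p = 0.574). Rel and Relb, the subunits tied most to lymphoid and dendritic cells, were under 10 CPM in every library, with log2 fold changes of 0.23 ± 0.29 and -0.06 ± 0.25 (SE; edgeR adjusted p = 0.689 and 0.923).

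The IkappaB proteins leaned the other way from the subunits without passing the test in any case, with 4 of 5 above 0 and a median of 0.34. The classical inhibitor gene Nfkbia stood at 157.0, 151.8 and 133.6 CPM in the control libraries and at 132.6, 175.5 and 201.3 CPM in the knockout libraries. Knockout replicate 1 was the lowest of the 6 and knockout replicates 2 and 3 the highest, so the groups overlapped (log2 fold change 0.20, edgeR adjusted p = 0.485). Nfkbie, which encodes IkappaB-epsilon, was at 7.39, 9.31 and 9.36 CPM in control and 9.74, 10.4 and 15.7 CPM in knockout. Its groups did not overlap, but knockout replicate 1 was close to control, and its log2 fold change of 0.46 had an edgeR adjusted p of 0.190. Nfkbib, which encodes IkappaB-beta, lay below control in each knockout library, at 57.6 ± 1.83 against 51.1 ± 5.58 CPM (SD, n = 3 per group, edgeR adjusted p = 0.423). Ccer2 and Sirt2, on the opposite strand, overlap 16.4% of its exonic bases. Sirt2 was at a mean of 101.4 CPM in control and 66.9 CPM in knockout (log2 fold change -0.60, edgeR adjusted p = 0.00999). The part of this overlap in the Nfkbib values was not tested.

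The nuclear IkappaB proteins act on chromatin as partners of NF-kappaB dimers. Nfkbiz, needed for secondary response genes such as Il6 in mice, stood at 1.87, 2.35 and 2.30 CPM in control and 2.24, 4.49 and 3.95 CPM in knockout (log2 fold change 0.71, SE 0.30, edgeR adjusted p = 0.172). Bcl3 was at 6.32 ± 2.03 and 8.01 ± 2.21 CPM (SD, n = 3 per group; log2 fold change 0.34, edgeR adjusted p = 0.487). For both, knockout replicate 1 lay inside the control range while knockout replicates 2 and 3 lay above it.

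In the IKK complex, the catalytic subunit gene Ikbkb came close to the threshold. IKK-beta is the kinase of the complex that phosphorylates IkappaB in classical signalling. Ikbkb stood at 43.5, 43.9 and 49.98 CPM in control and 37.5, 30.03 and 34.3 CPM in knockout, with no overlap (log2 fold change -0.43, SE 0.13, edgeR adjusted p = 0.0553). With DESeq2 the adjusted p was 0.0237. Ikbkg, which encodes the regulatory subunit NEMO, was at 7.17 ± 0.248 CPM in control and 8.01 ± 0.273 CPM in knockout (SD, n = 3). Its groups were apart but only by a log2 fold change of 0.16 (edgeR adjusted p = 0.579). Of its exonic bases, 5.2% overlap G6pdx on the opposite strand. G6pdx was at a mean of 124.2 CPM in control and 94.2 CPM in knockout (edgeR adjusted p = 0.0462). The part of this overlap in the Ikbkg values was not tested. Chuk, which encodes IKK-alpha, the kinase of alternative signalling, was at 8.18 ± 0.493 and 8.37 ± 0.612 CPM (log2 fold change 0.03, edgeR adjusted p = 0.928).

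Among the 14 adaptors, ligases and upstream kinases, Myd88 fell and Tank rose. Myd88 (ENSMUSG00000032508, chromosome 9, 119335934 to 119340041 on the minus strand) encodes the adaptor shared by most Toll-like receptors and the interleukin-1 receptor. It stood at 91.4, 96.9 and 105.5 CPM in control and 59.8, 64.4 and 71.8 CPM in knockout. The groups were well apart, and the log2 fold change was -0.58 (SE 0.12, edgeR adjusted p = 0.0121). It was called in 13 of the 17 alternative analyses. The call was lost without knockout replicate 1 (edgeR adjusted p = 0.0574, log2 fold change -0.53) and with limma on unscaled FPKM, at limma adjusted p = 0.0870 on log2(FPKM + 1), 0.0982 on log2(FPKM + 0.1) and 0.210 without a filter. Of its 2576 exonic bases, 290 also belong to Acaa1a on the opposite strand, and use of strand in the counting is not stated in the sources used. Acaa1a itself had a log2 fold change of -0.08 (edgeR adjusted p = 0.794).

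Tank (ENSMUSG00000064289, chromosome 2, 61578585 to 61654171 on the plus strand) encodes a scaffold that binds TRAF proteins and the IKK-related kinases and restrains Toll-like receptor signalling in mice. It stood at 11.03, 14.3 and 9.75 CPM in control and 16.4, 18.1 and 20.4 CPM in knockout. All knockout libraries were above all control libraries, at a log2 fold change of 0.65 (SE 0.17, edgeR adjusted p = 0.0335). The call was kept without control replicate 2 (edgeR adjusted p = 0.0268) and lost without each other library, at edgeR adjusted p = 0.126 and 0.107 without control replicates 1 and 3 and 0.0538, 0.0887 and 0.113 without knockout replicates 1, 2 and 3. On library totals its log2 fold change was 0.35 (edgeR adjusted p = 0.497).

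The IRAK kinases, which act just below MyD88, differed in direction. Irak1 was at 28.1, 28.5 and 29.1 CPM in control and 23.1, 22.4 and 24.4 CPM in knockout (log2 fold change -0.29, edgeR adjusted p = 0.153). Irak4, the first kinase recruited to MyD88, was at 12.04 ± 0.546 and 10.6 ± 0.850 CPM (SD, n = 3 per group; log2 fold change -0.18, edgeR adjusted p = 0.479). Irak2, a later-acting family member that sustains signalling in mice, was at 17.996, 15.7 and 20.9 CPM in control and 22.5, 24.8 and 26.4 CPM in knockout (log2 fold change 0.43, edgeR adjusted p = 0.0892). None of these passed the test, though for each of the 3 the groups did not overlap.

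The TRAF adaptors and IAP ligases join the receptors to the kinases. Traf1, an NF-kappaB target in many cells, was low, at 1.60, 1.60 and 1.42 CPM in control and 2.53, 3.07 and 2.68 CPM in knockout (log2 fold change 0.84, SE 0.28, edgeR adjusted p = 0.0826). Traf6, the ligase of MyD88 signalling, was at 3.38, 2.43 and 2.15 CPM in control and 3.66, 4.15 and 3.87 CPM in knockout (log2 fold change 0.56, edgeR adjusted p = 0.200). For both, each knockout library was above each control library, at levels where a library held 87 to 233 units. Traf2 and Traf3, which together restrain alternative signalling, and the ligase genes Birc2 and Birc3 had log2 fold changes of -0.18 to 0.18 and overlapped between groups, as did Map3k7 and Tab2 at 0.11 and 0.03. Map3k7 encodes the kinase that activates IKK, and Tab1 and Tab2 encode its binding partners. Tab1 had the lowest value of all members, -0.66, but its libraries spread widely, at 4.51 to 9.28 CPM in control and 2.73 to 5.999 CPM in knockout (edgeR adjusted p = 0.233).

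**Figure D3:**
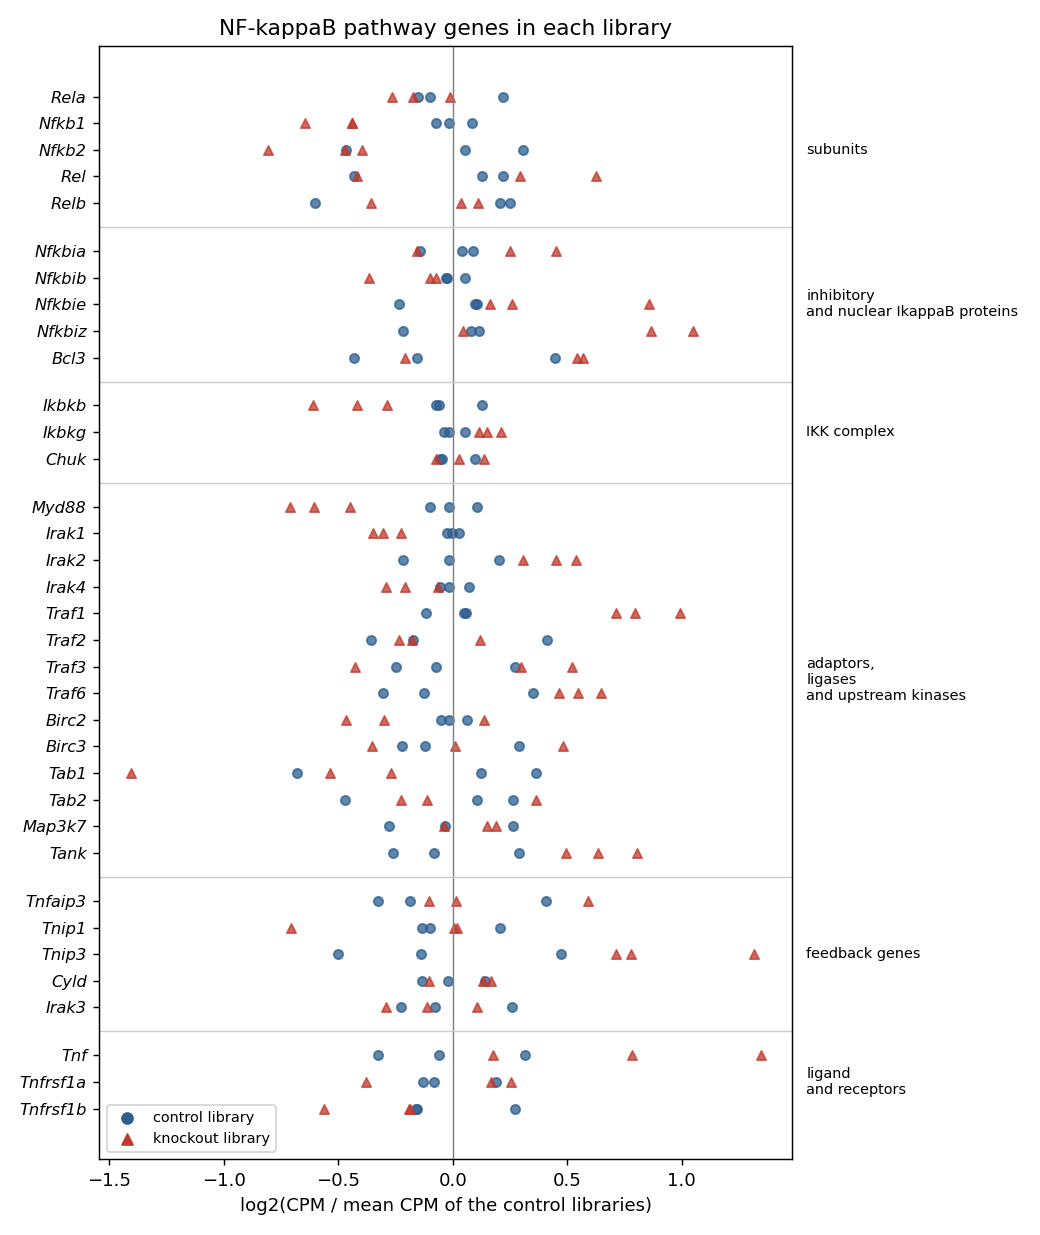
Each member in each library as log2 of its CPM over the mean of the 3 control libraries (circles for control, triangles for knockout), grouped by role. Triangles lie wholly to the left of the circles for Nfkb1, Nfkbib, Ikbkb, Myd88, Irak1, Irak4 and Tnfrsf1b. They lie wholly to the right for Nfkbie, Ikbkg, Irak2, Traf1, Traf6, Tank and Tnip3. For Nfkbia, Nfkbiz, Bcl3 and Tnf they fan out to the right with 1 knockout library among or near the controls.

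The further feedback genes remove or block ubiquitin signals or inhibit the IRAK step. Tnfaip3 encodes the ubiquitin-editing enzyme that is the best known brake of the pathway. It was at 4.95, 8.24 and 5.46 CPM in control and 5.79, 6.28 and 9.36 CPM in knockout, an overlap with no call (log2 fold change 0.20, SE 0.25, edgeR adjusted p = 0.683). Its partners differed from each other. Tnip1 was at 5.22 ± 0.704 and 4.57 ± 1.19 CPM (SD, n = 3 per group; log2 fold change -0.19, edgeR adjusted p = 0.688), while Tnip3 was at 1.21, 1.56 and 2.38 CPM in control and 2.94, 4.27 and 2.81 CPM in knockout. The Tnip3 groups were apart, and its log2 fold change of 0.95, the highest of the members, had a standard error of 0.33 (edgeR adjusted p = 0.0929). Cyld, a deubiquitinase, and Irak3, an inhibitory IRAK typical of macrophages, had log2 fold changes of 0.07 ± 0.17 and -0.09 ± 0.20 (SE; edgeR adjusted p = 0.852 and 0.828). The median log2 fold change of the 5 feedback genes was 0.07.

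Tnf, the cytokine that both triggers NF-kappaB and is made under its control, stood at 9.74, 12.6 and 8.12 CPM in control and 11.5, 17.5 and 25.8 CPM in knockout. Knockout replicate 1 lay within the control range and knockout replicate 3 far above it. The log2 fold change was 0.85 (SE 0.27, edgeR adjusted p = 0.0688). It was 0.51 without knockout replicate 3 (edgeR adjusted p = 0.254) and 1.09 without knockout replicate 1 (edgeR adjusted p = 0.0239), and DESeq2 called it at an adjusted p of 0.0143. Knockout replicate 3 also had the highest summed markers of monocytes and interstitial macrophages, 224.8 CPM against 107.0 and 111.5 CPM in knockout replicates 1 and 2, with Ly6c2 at 13.6 CPM against 0.373 to 1.18 CPM in the other libraries. The part of those cells in the Tnf values was not tested. Of the receptors, Tnfrsf1a, the widely expressed one that carries a death domain, was at 37.6 ± 4.62 CPM in control and 38.6 ± 8.52 CPM in knockout (log2 fold change 0.04, edgeR adjusted p = 0.922). Tnfrsf1b, the receptor of immune cells without a death domain, was at 71.8 ± 12.9 and 58.1 ± 8.25 CPM (log2 fold change -0.30, edgeR adjusted p = 0.263). With limma on log2(FPKM + 1), which is not scaled between libraries, it was called lower at -0.59 (limma adjusted p = 0.0256, and 0.0439 without a filter).

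Read by role group, the knockout libraries did not move as 1 block. Relative to the control mean, the median over the 5 subunits was -0.38, -0.26 and -0.00 on the log2 CPM scale in knockout replicates 1, 2 and 3, and the median over the 5 IkappaB proteins was -0.07, 0.26 and 0.61. The control libraries lay between -0.09 and 0.23 for the subunits and between -0.11 and 0.08 for the IkappaB proteins. Knockout replicate 3 was above knockout replicate 1 in 5 of the 6 role groups, the exception being the IKK complex. Medians in the fit over all genes were -0.15 for the subunits, 0.34 for the IkappaB proteins, 0.03 for the IKK complex, 0.06 for adaptors, ligases and kinases, 0.07 for the feedback genes and 0.04 for ligand and receptors. Leaving out 1 library moved them to between -0.29 (without control replicate 1) and -0.02 (without control replicate 3) for the subunits and to between 0.21 (without knockout replicate 3) and 0.55 (without knockout replicate 1) for the IkappaB proteins. The other 4 medians turned sign when a library was left out. That of the IKK complex was -0.02 without knockout replicate 1, and without knockout replicate 3 those of adaptors, feedback genes and ligand and receptors were -0.09, -0.05 and -0.08. Those of adaptors and of ligand and receptors were also below 0 without control replicate 1 (-0.06 and -0.03), and the latter without control replicate 2 or knockout replicate 2 (-0.00 and -0.04). On library totals the 6 medians were -0.47, 0.01, -0.28, -0.25, -0.23 and -0.27. That scaling lowers log2 fold changes together, so the subunits were bound to stay below 0. The IkappaB median was then near 0, with Nfkbia at -0.08, so its direction depends on the scaling.

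Shares within a gene family do not depend on how libraries are scaled, and were computed after the values were seen. Within the IRAK family, Irak1 made up 41.5%, 44.7% and 39.7% of the summed FPKM in the control libraries and 36.3%, 32.8% and 34.04% in the knockout libraries. Irak2 made up 28.5%, 26.3% and 30.5% in control and 37.8%, 38.95% and 39.4% in knockout, so that Irak2 passed Irak1 in each knockout library. In count units the ratio of Irak2 to Irak1 was 0.641, 0.549 and 0.720 in control and 0.973, 1.11 and 1.08 in knockout. Within the IKK complex, Ikbkb made up 49.1% ± 2.94 in control and 40.3% ± 1.47 in knockout of the summed FPKM (SD, n = 3 per group) while Ikbkg went from 17.99% ± 0.871 to 22.3% ± 1.35 and Chuk from 32.9% ± 2.13 to 37.3% ± 0.488, all without overlap. Among the subunits Rela stayed dominant at 63.3% ± 3.52 and 66.8% ± 3.45, and Nfkb1 went from 7.15% ± 0.749 to 5.83% ± 0.413 without overlap. Of the summed FPKM of Nfkbia, Nfkbib and Nfkbie, the share of each gene overlapped between groups. A two-sided exact permutation test of 3 libraries against 3 cannot give a p below 0.1, and shares of 1 family sum to a fixed total, so they are not independent.

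**Figure D4:**
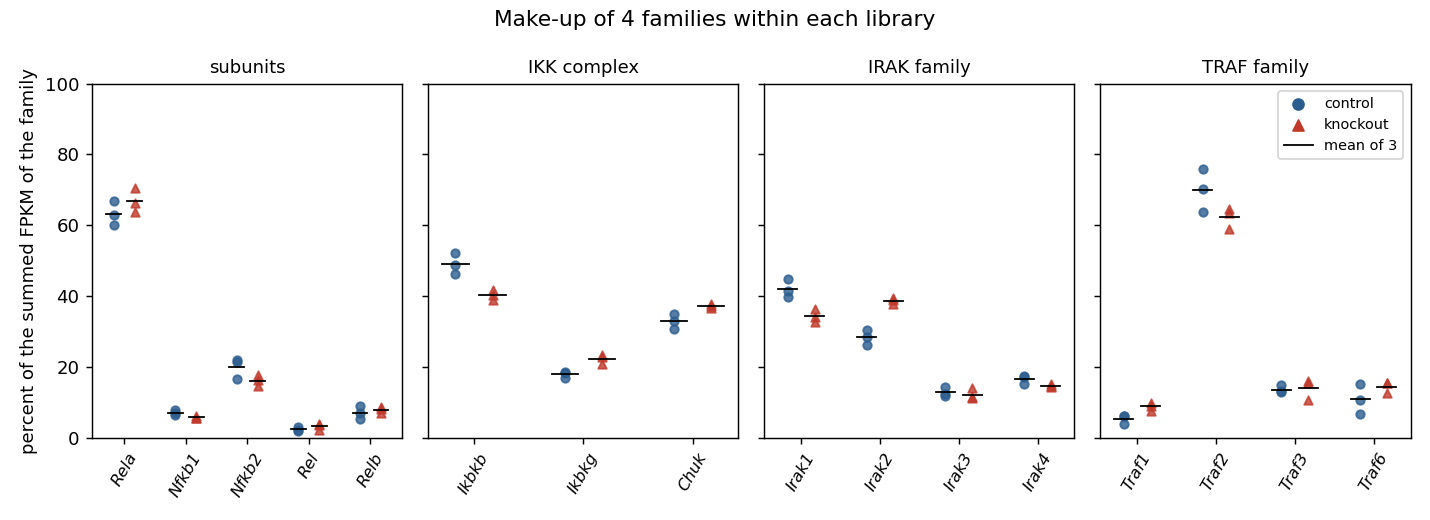
Percent of the summed FPKM of 4 families that each member makes up in each library (circles for control, triangles for knockout, bars for the mean of 3). Irak2 at 37.8% to 39.4% in knockout stands above its control range of 26.3% to 30.5%, and Ikbkb lies lower in knockout, while Rela overlaps between groups.

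Of 47 further pathway genes, all tested, 1 was higher, 1 was lower and 45 did not pass, against 5.93% higher and 6.01% lower among all genes, and their median log2 fold change was 0.05 against 0.01. Rnf11, which encodes a RING finger protein that binds the Tnfaip3 enzyme in human cells, was at 11.8, 12.4 and 11.7 CPM in control and 24.8, 23.5 and 22.3 CPM in knockout, 1.96-fold higher (log2 fold change 0.97, SE 0.13, edgeR adjusted p = 0.00122). Traf5, a further TRAF adaptor, was at 6.18, 5.58 and 6.36 CPM in control and 2.24, 2.82 and 4.07 CPM in knockout, 1.98-fold lower (log2 fold change -0.98, SE 0.25, edgeR adjusted p = 0.0269). No gene of this list was called lower in 5 of the 6 analyses that left out a library.

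Of 45 tested genes that NF-kappaB is known to induce, 11 were higher, 4 were lower and 30 did not pass, against 5.93% higher and 6.01% lower among all genes. Their median log2 fold change was 0.34, against 0.01 for all genes. The higher genes with the smallest p were Ccl3, Il1a, Sdc4, Ccrl2 and Il1b, which encode a chemokine, an interleukin, a syndecan, a chemokine-binding receptor and a further interleukin. Ccl3 rose from 20.4 ± 2.39 to 72.6 ± 11.1 CPM, Il1a from 19.5 ± 1.91 to 57.5 ± 16.3 CPM and Il1b from 21.8 ± 2.54 to 43.1 ± 12.99 CPM (SD, n = 3 per group; edgeR adjusted p = 6.28e-05, 0.000731 and 0.0124). Sdc4 rose from 2.004 ± 0.0752 to 6.61 ± 1.24 CPM and Ccrl2 from 9.81 ± 0.942 to 24.1 ± 7.36 CPM (SD, n = 3 per group; edgeR adjusted p = 0.000976 and 0.00320). The lower genes were Bcl2a1d, Cd83, Plaur and Irf1, which encode a survival factor, an activation marker, the urokinase receptor and a transcription factor. Cd83 fell from 57.0 ± 6.40 to 38.9 ± 5.21 CPM and Plaur from 534.4 ± 40.2 to 367.1 ± 47.4 CPM (edgeR adjusted p = 0.0280 and 0.0374), and Bcl2a1d has near-identical copies, so its share of reads is uncertain. Many of these genes also answer to other factors. The list was drawn up with earlier results of these data known, so its counts describe it and are not independent support for a change in the pathway. Library totals gave 4 higher. Leaving out 1 library gave 6 to 9 higher and 0 to 3 lower, with 6 higher without control replicates 1 or 2 or knockout replicate 2, and 0 lower without control replicate 1 or knockout replicate 2.

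The share of all genes called sets the scale for how often members were called under other processing. It was 8.27% on library totals, 7.43% without a filter on low counts, 25.3% at a mean of at least 10 CPM and 15.7% with DESeq2. With limma it was 4.97% on log2(FPKM + 1), 4.75% on log2(FPKM + 0.1), 0.855% without a filter and 10.1% on FPKM over size factors. The share was 11.9% with median-of-ratios size factors, 16.6% on counts divided by 4 and 9.93% with the replicate number as a block. Leaving out control replicates 1, 2 and 3 gave 5.31%, 6.36% and 8.17%, and leaving out knockout replicates 1, 2 and 3 gave 7.36%, 6.73% and 7.51%. Across these 17 alternatives Myd88 was called in 13, Nfkb1 and Tank in 6 each, Tnf in 5, Ikbkb in 3, Tnfrsf1b in 2 and Irak1 and Irak2 in 1 each.

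**Figure D5:**
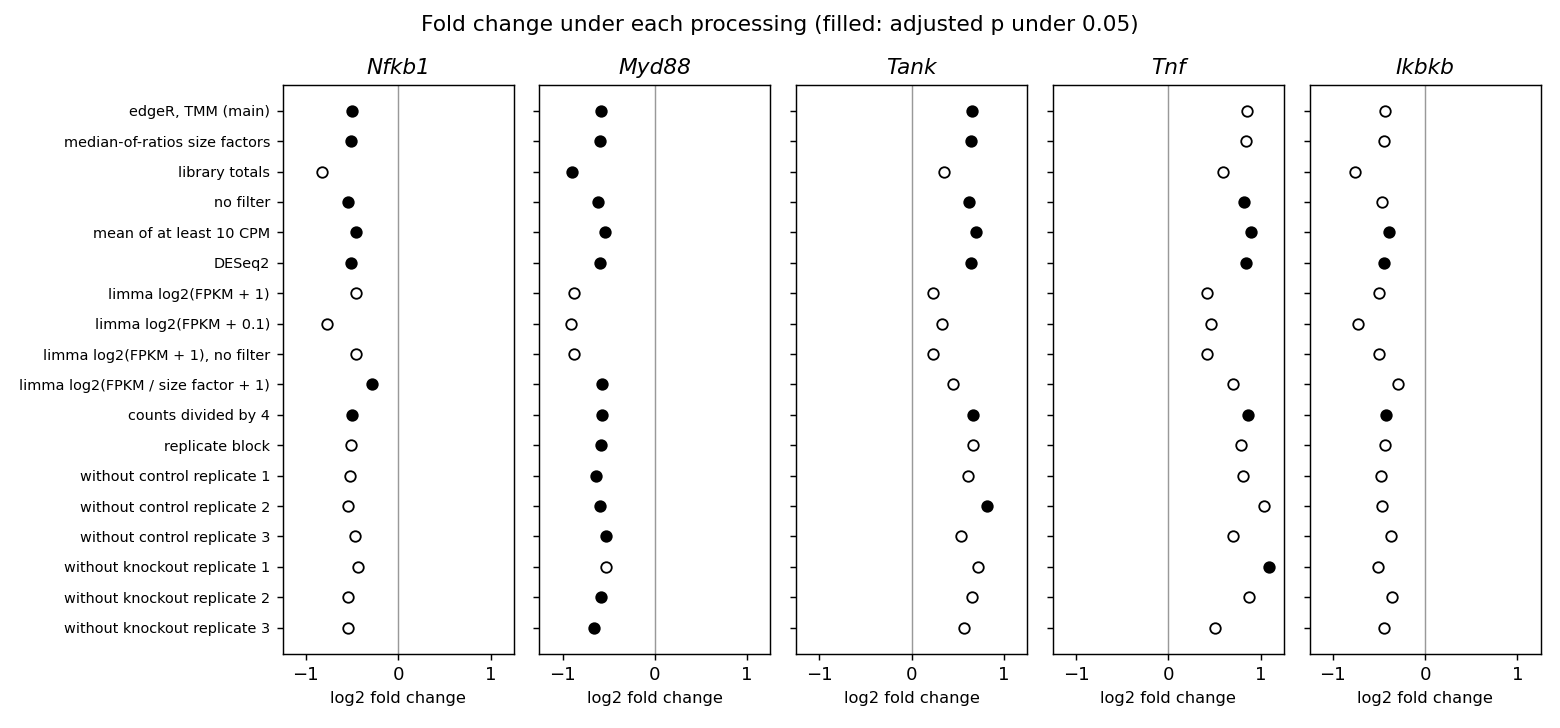
Log2 fold change of 5 members (x axis) under the reported analysis and each of the 17 alternatives (y axis), filled where the adjusted p was under 0.05. The sign is the same in every row for all 5, whereas only Myd88 is filled in most rows, and Nfkb1 is open in each row that leaves out a library.

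The X-linked members Ikbkg and Irak1 were looked at beside sex-linked transcripts, since the sex of the mice is not given. Xist, transcribed from the inactive X chromosome, was at 0.741 CPM in knockout replicate 1 and at 10.4 to 70.6 CPM in the other libraries, and the Y-linked Eif2s3y reached 15.99 CPM in the first knockout library and 2.68 in the second, with at most 0.681 CPM elsewhere. Ikbkg stood at 7.95 CPM and Irak1 at 23.1 CPM in knockout replicate 1, both between the values of the other knockout libraries. Knockout replicate 1 was also the knockout library that lay inside the control range for Nfkbiz, Bcl3 and Tnf. The part of sex in the values of the members was not tested.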

How the data were processed

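Library preparation used TRIzol RNA and a NEBNext Ultra kit, as the labels' protocols state. The tools listed in the submitters' processing notes are StringTie, HISAT2, FastQC and cutadapt, with edgeR and DESeq2, and the build is GRCm38, with no versions or roles given. For each gene and library the authors deposited an estimated (expected) count. They also deposited an FPKM value, per the file headers. The deposited counts are whole numbers. In the 4447 genes with over 500 units in every library, count over FPKM kept a constant proportion within 1%, and the length it implied for the members matched all exonic bases of GENCODE M21 within 5%.

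Groups were compared with edgeR's quasi-likelihood test on the deposited estimated counts (default expression filter, TMM, no covariate, Benjamini-Hochberg adjustment over all genes tested at 0.05). CPM values use TMM-scaled library sizes, and a standard error is the size of a log2 fold change divided by the root of its F statistic. The statistics used edgeR 4.0.16, limma 3.58.1 and DESeq2 1.42.0 under R 4.3.3. Tables and figures used numpy 2.4.6, pandas 2.3.3 and matplotlib 3.10.9 under Python 3.11.15. The test was checked on simulated data. Exons of 9 members overlap those of another gene, 8 of them on the opposite strand.

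The members, lists and tests were chosen with earlier results of these data known. Genes named are the members, Rack1, and up to 5 called genes per direction with the smallest p from the lists of other pathway and target genes. Markers, Acaa1a, G6pdx, Sirt2, Xist and Eif2s3y are given as levels or as values beside a member, and Ccer2 is named only for its overlap. Depth ran from 51894849 to 66163430 units per library. Alternatives changed the scaling, the filter, the tool, the unit, the replicate block or left out 1 library.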

Additional observations from a re-analysis of the deposited data

How the results depend on the processing

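Calls rested on the fit. Against 878 genes higher and 889 lower in the reported analysis, library totals gave 290 higher, limma on log2(FPKM + 1) 130 higher, limma on log2(FPKM + 0.1) 198 higher and 505 lower, and limma without a filter 40 higher and 186 lower. Leaving out 1 library gave 455 to 691 higher and 372 to 565 lower over all genes, 0 to 1 members higher and 0 to 1 lower, 1 further pathway gene higher and 0 to 1 lower, and 6 to 9 target genes higher and 0 to 3 lower. The members called higher were 0 with the replicate block, under each of the 4 limma settings and on library totals, 2 without a filter, with DESeq2 and with counts divided by 4, and 3 at a minimum of 10 CPM. Members called lower were 1 with limma on log2(FPKM + 1), filtered or not, which was Tnfrsf1b and not Nfkb1 or Myd88, 1 on library totals, 0 with log2(FPKM + 0.1), and 1 with the replicate block. Other pathway genes higher were 0 on library totals and with limma on unscaled FPKM, 2 at a minimum of 10 CPM and with the replicate block, and 3 with DESeq2. Lower ones were 0 at that minimum and with limma on unscaled FPKM, and 2 with limma on scaled FPKM. Target genes higher were 4 on library totals, 7 at that minimum, 1 and 2 with limma at pseudocounts of 1 and 0.1, 6 with limma on scaled FPKM and 0 in the unfiltered limma analysis. Lower ones were 1 with limma at a pseudocount of 0.1 and 0 with limma without a filter. The members' median was -0.27 on library totals, -0.12 at a minimum of 10 CPM (16 members), -0.15 with limma on log2(FPKM + 1) with or without a filter and -0.24 at a pseudocount of 0.1. The cause was not tested, except that another scaling shifts log2 fold changes together by construction.

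With the replicate block 770 genes were higher and 699 lower, and Nfkb1 and Tank lost their calls (edgeR adjusted p = 0.0615 and 0.0516). Same-numbered libraries did not deviate together (correlations of deviations 0.03, -0.04 and 0.00). No pairing by number was seen, though such correlations cannot exclude a paired design. No called member changed direction under any of the 17 alternatives. Of 576 values of members under the alternatives, 65 from 15 members differed in sign without a call on either side. Members with few units, such as Traf1, Tnip3 and Nfkbiz, have standard errors near 0.3, so that 1.79-fold for Traf1 and 1.94-fold for Tnip3 did not pass the test.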

Other observations

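The KEGG annotation carried by the deposited table lists 96 genes under NF-kappa B signaling, 23 of them among the members, and was looked up after the values were seen. Of its 84 tested genes 2 were higher and 4 were lower in knockout, against 5.93% and 6.01% of all genes tested, with a median log2 fold change of 0.04 (edgeR, adjusted p under 0.05). Beside Nfkb1 and Myd88 these were Ccl4 and Il1b, which were higher, and Traf5 and Bcl2a1d, which were lower. Ccl4, a chemokine gene, stood at 32.7, 31.4 and 17.7 CPM in control and 51.8, 42.7 and 124.0 CPM in knockout, with knockout replicate 3 highest as for Tnf.

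Across the 35 members log2 fold changes tended to be lower at higher mean levels (Spearman's rho -0.39 over genes that share the 6 libraries), against -0.05 over the 14797 genes tested. The ratio of Tank to Myd88 in count units was 0.121, 0.147 and 0.0924 in control replicates 1, 2 and 3 and 0.275, 0.281 and 0.284 in knockout replicates 1, 2 and 3. These are the member called higher and the member with the smallest p called lower, so the separation follows from how the pair was picked.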
